A study of Mus musculus with 4 samples.

Results

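Genes of cholesterol, fatty acid and triglyceride synthesis were measured in spleen cells of mice given UVB, in 2 wild-type libraries and 2 libraries labelled Trim21 KO (called knockout below). The members were 33 genes chosen by symbol from knowledge of the pathways: 17 enzymes of cholesterol synthesis, 3 regulators, 3 enzymes of fatty acid synthesis, 5 desaturases and elongases, 3 enzymes of glyceride synthesis and 2 lipid transfer proteins. All 33 were found among 25509 gene rows, and all 33 entered the test with 13532 genes in all. Mice of both genotypes were 8 weeks old and were shaved on the back before UVB at 100 mJ/cm2, and the spleens were taken after the last exposure. The knockout is of Trim21, a cytosolic antibody receptor and ubiquitin ligase, and the labels describe the genotype as Trim21-/- without naming the strain, the targeted exons or whether each library is 1 mouse. Exposure lasted 1 or 3 weeks per the labels, which do not tie a length to a library. Unexposed mice were not analysed here, and all groups below share the UVB.

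Cells make cholesterol from acetyl-CoA through mevalonate, farnesyl diphosphate and squalene, which is closed into a ring and trimmed in the endoplasmic reticulum. They make fatty acids from the same precursor through citrate lyase, acetyl-CoA carboxylase and fatty acid synthase, and then lengthen and desaturate them for membranes or join them to glycerol as stored fat. Most of these enzymes are transcribed under the sterol regulatory element-binding proteins SREBP-1 (from Srebf1) and SREBP-2 (from Srebf2), which the INSIG proteins hold in the endoplasmic reticulum when sterol is plentiful. Dividing lymphocytes and blood cell precursors use both branches to build membranes, and monounsaturated, polyunsaturated and storage lipids are made by separate enzymes of the list.

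Library totals ran from 36173694 to 41924885 counts. Levels are given as CPM (counts scaled to a fixed library size after normalisation by the trimmed mean of M values, TMM). The TMM factors ran from 0.669 in knockout library 1 to 1.29 in wild-type library 2. A gene passed when its adjusted p from edgeR's quasi-likelihood test (Benjamini-Hochberg adjustment over 13532 genes) was under 0.05. Trim21 had 27.9 and 40.9 CPM in wild type and 13.4 and 20.4 CPM in knockout (adjusted p 0.17), and, with the targeted exons unstated, this total is no check of the allele. Library 1 of each genotype had 0.045 and 0.039 CPM of Xist and library 2 had 932 and 288 CPM, while 4 Y-linked genes summed to 109 and 108 CPM in libraries 1 and 0 counts in libraries 2. So each genotype had a male-pattern library 1 and a female-pattern library 2, from different mice, and log2 ratios between same-numbered libraries are given beside the results. All 10 B cell and all 10 T cell markers of the lists used were among the tested genes, and their summed levels are given with the other cell markers.

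In knockout spleens 5 of 33 members passed as higher: the polyunsaturated fatty acid desaturases Fads1 and Fads2, the glyceride acyltransferases Dgat2 and Mogat2, and the lipid transfer gene Stard10. Of all tested genes, 6.29% passed, 5.90% as higher. In the cholesterol branches 0 of 17 enzymes passed by edgeR or limma-voom, and 1, Fdft1, by DESeq2 and at an unadjusted p under 0.05. Scd1, the stearoyl-CoA desaturase that makes monounsaturated fatty acids, had the most negative log2 fold change of the members and did not pass, with means of 454 ± 177 CPM over the wild-type libraries and 138 ± 20.4 CPM over the knockout libraries (SD, n = 2 each). The median log2 fold change (knockout over wild type) was 0.047 for the 33 members and -0.056 for all tested genes, while branch medians ran from -1.02 (fatty acid synthesis) to 2.66 (glyceride synthesis).

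As lower, 0 of 33 members passed in the main edgeR fit, which had no covariate and is meant where edgeR is named alone. The share of all tested genes was 0.392%. At an unadjusted p under 0.05, 4 members were lower (Srebf2, Acaca, Fasn and Scd1) and 7 were higher (the 5 that passed, Fdft1 and Dgat1), beside 12.3% and 15.5% of all tested genes. DESeq2's Wald test put 3 members lower (Srebf2, Fasn and Scd1) and 7 higher past the threshold, where it passed 6.86% and 11.6% of all tested genes, and limma-voom gave 0 lower and 5 higher. Both knockout libraries lay above both wild-type libraries for 10 members and below for 13, while the groups overlapped for 10. The same shares of all tested genes were 30.3% above and 30.1% below.

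**Figure D1:**
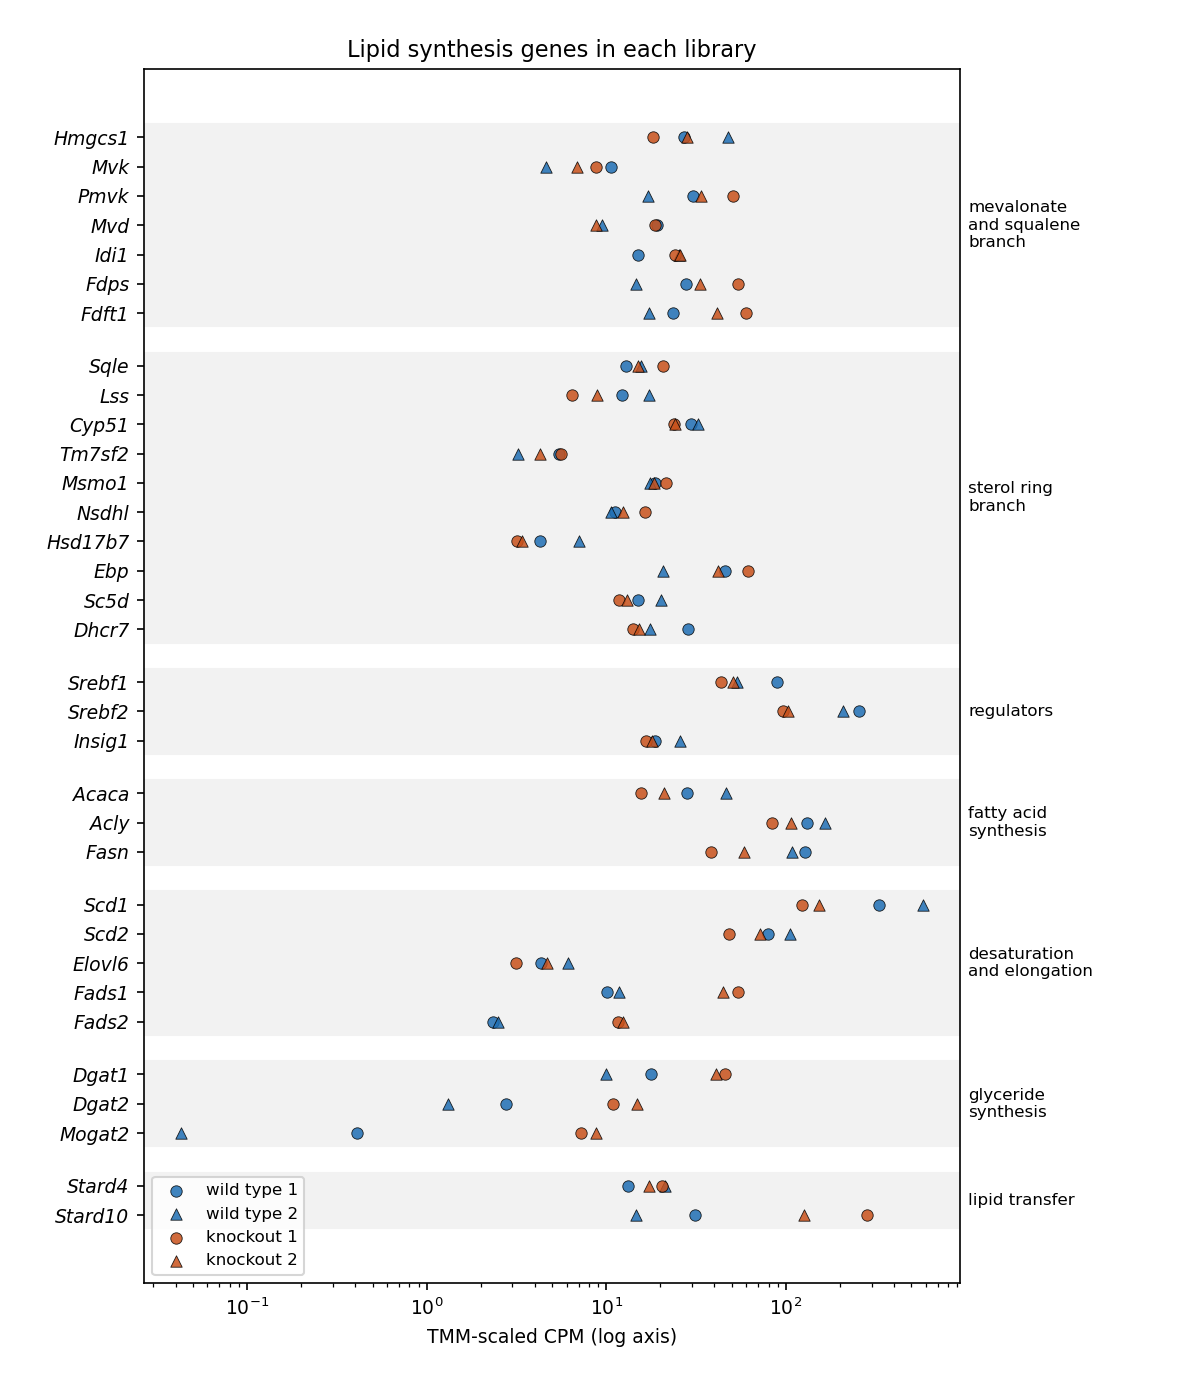
TMM-scaled CPM of the 33 genes (log axis) in each of the 4 libraries, grouped by branch; blue marks wild type, orange knockout, circles replicate 1 and triangles replicate 2. Both knockout libraries lie to the right of both wild-type libraries for 10 members: Pmvk, Fdps, Fdft1, Nsdhl, Fads1, Fads2, Dgat1, Dgat2, Mogat2 and Stard10. They lie to the left for 13: all 3 regulators, all 3 fatty acid synthesis genes, Scd1, Scd2, Lss, Cyp51, Hsd17b7, Sc5d and Dhcr7.

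**Figure D2:**
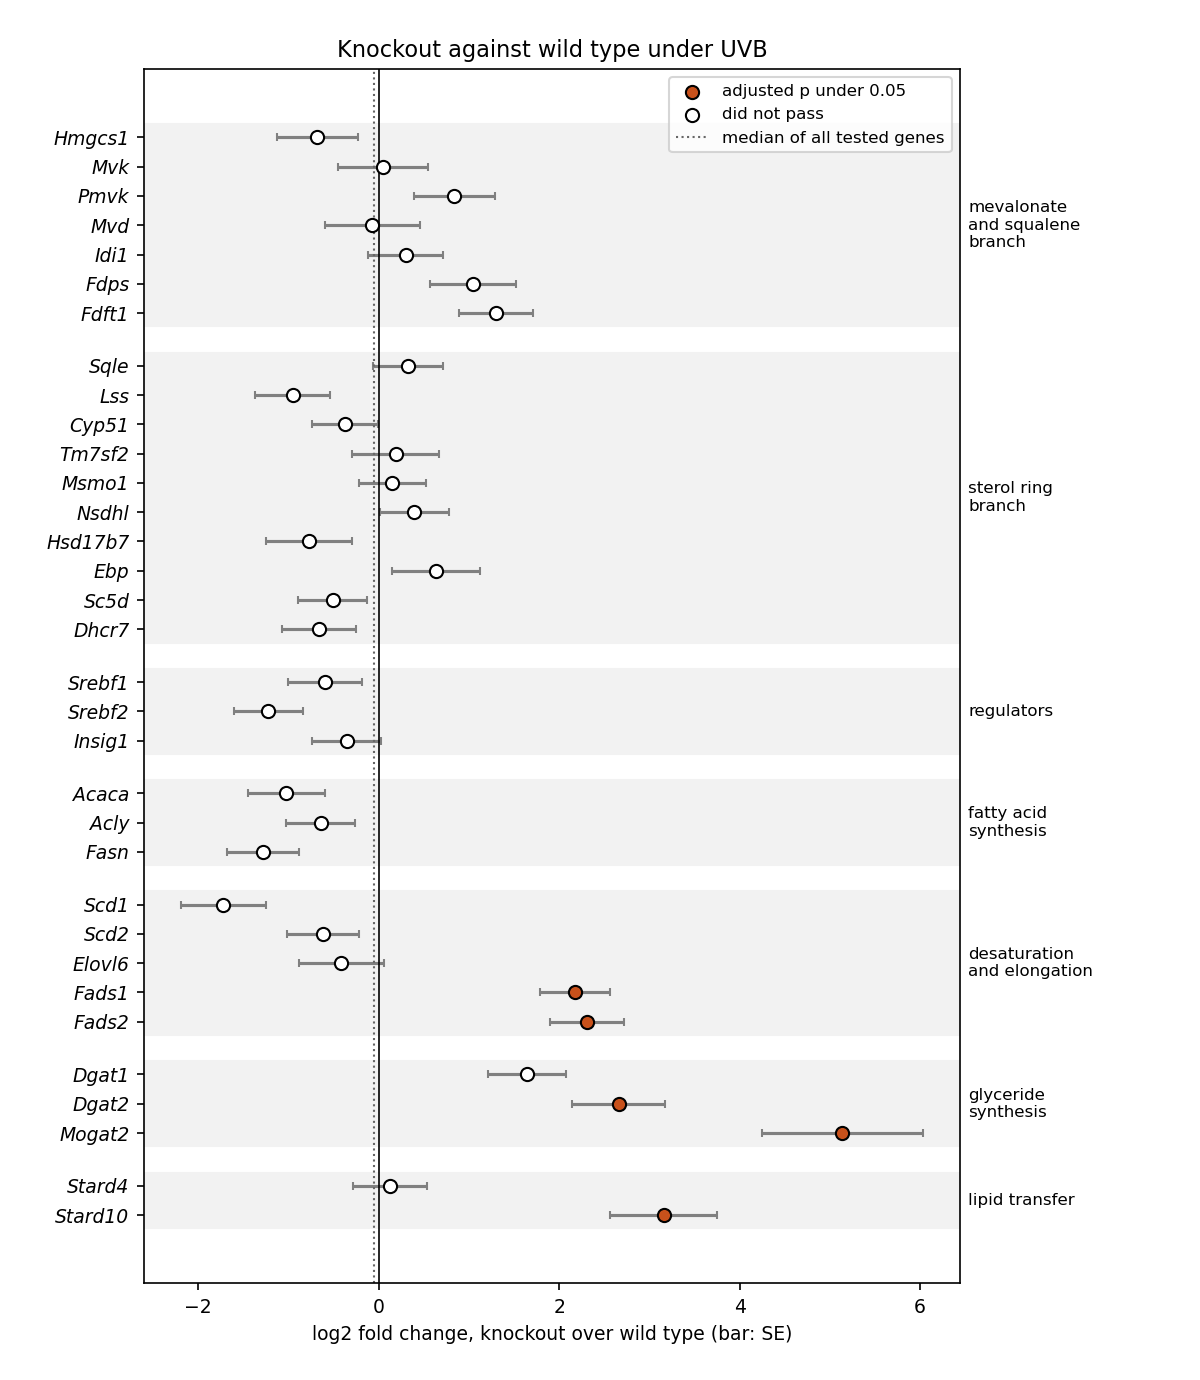
Log2 fold change, knockout over wild type, of each member with its standard error from edgeR; filled points passed at an adjusted p under 0.05 and open points did not. The 5 filled points lie between 2.18 (Fads1) and 5.14 (Mogat2), and no filled point lies left of 0.

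Promoter sequence is shown for 4 members: the only one with an exact sterol regulatory element, 2 members with lower levels in knockout and 1 that passed as higher. RefSeq windows on GRCm38.p6, 250 bases before to 50 after a start site, were at hand for 23 of 33 members (28 windows). They were searched on both strands for 5 motifs: the sterol regulatory element TCACNCCAC, the NF-Y box CCAAT, the Sp1 box GGGCGG, the E-box CACGTG and the GATA box AGATAA. The NF-Y box was found for 19 of the 23 members. It was in 71.4% of member windows and in 37.4% of all 32851 windows. The Sp1 box had the same member share, against 35.7% of all windows. The 4 members with no NF-Y box in the window were Acaca, Elovl6, Fads2 and Stard10. Of these, Fads2 and Stard10 passed as higher, while Acaca and Elovl6 had negative log2 fold changes (-1.02 and -0.41). Fads1, Dgat2 and Mogat2, which also passed, had no window. The exact sterol regulatory element was found only at Hmgcs1, 137 bases before its start site, and in 1.24% of all windows. The E-box was found for 4 members (Dhcr7, Hsd17b7, Insig1 and Sc5d) and in 7.15% of all windows. The exact letters AGATAA were found for 0 members and in 11.2% of all windows. Other forms of the GATA box, such as TGATAA, were not searched, so a lack of GATA sites cannot be read from this. A match in letters is a description and not a bound site.

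The bases before the start site, clear of annotated exons, follow 5′ to 3′ on the gene's strand, with every match to the 5 motifs in capitals. Hmgcs1 lies at chr13:119690101-119690350 (plus strand), Srebf2 at chr15:82147019-82147180 (plus strand), Fasn at chr11:120824548-120824797 (minus strand) and Stard10 at chr7:101316836-101317085 (plus strand). Hmgcs1 carries the sterol element amid NF-Y and Sp1 boxes, Srebf2 has 1 NF-Y and 1 Sp1 box in the stretch shown, and Fasn has NF-Y boxes alone, of which one pair overlaps on opposite strands. Stard10 has no capitals, so none of the 5 exact motifs matched, although variant forms were not searched and TGATAA is present on its opposite strand.
Hmgcs1: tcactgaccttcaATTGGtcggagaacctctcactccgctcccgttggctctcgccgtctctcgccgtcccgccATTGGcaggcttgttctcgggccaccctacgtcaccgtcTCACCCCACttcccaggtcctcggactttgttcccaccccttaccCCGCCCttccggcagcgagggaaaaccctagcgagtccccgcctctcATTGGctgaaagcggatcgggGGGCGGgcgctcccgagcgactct
Srebf2: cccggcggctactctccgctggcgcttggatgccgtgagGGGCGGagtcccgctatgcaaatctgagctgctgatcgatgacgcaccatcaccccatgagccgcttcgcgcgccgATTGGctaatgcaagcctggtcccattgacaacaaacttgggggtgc
Fasn: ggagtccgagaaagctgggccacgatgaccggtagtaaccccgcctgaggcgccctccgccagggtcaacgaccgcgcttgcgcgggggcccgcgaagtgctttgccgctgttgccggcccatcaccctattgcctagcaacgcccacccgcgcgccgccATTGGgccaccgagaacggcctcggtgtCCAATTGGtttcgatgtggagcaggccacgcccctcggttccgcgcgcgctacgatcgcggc
Stard10: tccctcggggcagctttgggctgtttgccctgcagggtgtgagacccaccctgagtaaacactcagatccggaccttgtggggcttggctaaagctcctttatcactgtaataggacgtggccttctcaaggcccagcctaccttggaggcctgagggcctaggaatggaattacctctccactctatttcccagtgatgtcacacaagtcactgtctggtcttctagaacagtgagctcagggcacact

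The first enzymes of cholesterol synthesis, from acetyl units to squalene, had a median log2 fold change of 0.30 over 7 genes, with 5 higher, 2 lower and 0 passed (1 had an unadjusted p under 0.05 and the same 1, Fdft1, passed by DESeq2, with 0 by limma-voom). Fdft1 encodes squalene synthase, which commits farnesyl diphosphate to sterols. It had 23.5 and 17.4 CPM in wild type and 59.9 and 41.2 CPM in knockout, or 1.30 ± 0.41 (SE) as log2 fold change (adjusted p 0.099). It passed as higher in 3 of 13 alternative fits: DESeq2, the replicate block and the fit without wild-type library 1. The groups of Fdft1 did not overlap, and the log2 ratio was 1.35 between libraries 1 and 1.24 between libraries 2. Fdps, farnesyl diphosphate synthase, had 27.9 and 14.6 CPM in wild type and 54.3 and 33.3 CPM in knockout (1.04 ± 0.47, adjusted p 0.20), again with no overlap. Pmvk, the phosphomevalonate kinase, had 30.3 and 17.0 against 51.0 and 33.5 CPM (0.84 ± 0.45, adjusted p 0.26). For both genes, library 1 was the higher of the 2 in each genotype. Each passed as higher in 2 of 13 alternative fits, the replicate block and the fit without wild-type library 1.

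Hmgcs1, which makes HMG-CoA at the head of the pathway, had 26.9 and 47.6 CPM in wild type and 18.3 and 28.2 CPM in knockout, and its groups overlapped (-0.68 ± 0.45, adjusted p 0.35). Ratios of counts per kilobase within a library do not depend on scaling, and Fdft1 over Hmgcs1 was 0.9502 and 0.397 for wild type and 3.56 and 1.58 in knockout. Squalene synthase thus had the higher level per kilobase in the 2 knockout libraries and in neither wild-type library. Fdft1 had the highest and Hmgcs1 the lowest log2 fold change of these first enzymes, so the ratio is no further test of either change. Mvk, Mvd and Idi1, the mevalonate kinase, mevalonate diphosphate decarboxylase and isopentenyl diphosphate isomerase, had log2 fold changes between -0.068 and 0.30 and overlapping groups.

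The 10 enzymes from squalene to cholesterol showed no common direction, with 5 higher, 5 lower, a median of -0.11 and 0 passed (0 at an unadjusted p under 0.05, by DESeq2 or by limma-voom). Lss, lanosterol synthase, which closes the sterol ring, had 12.2 and 17.3 CPM in wild type and 6.42 and 8.82 CPM in knockout (-0.95 ± 0.41, adjusted p 0.18). It passed as lower in 2 of 13 alternative fits, the replicate block (adjusted p 0.0087) and the fit without wild-type library 1. Cyp51 (lanosterol demethylase), Hsd17b7 (a sterol ketoreductase), Sc5d (a sterol desaturase) and Dhcr7 (the reductase of the last step) also lay lower in both knockout libraries, with log2 fold changes from -0.77 to -0.37. Nsdhl, a sterol dehydrogenase, lay higher in both (0.40). Sqle, Tm7sf2, Msmo1 and Ebp, the squalene epoxidase, a sterol reductase, a methylsterol oxidase and a sterol isomerase, had overlapping groups and log2 fold changes from 0.15 to 0.64. Summed over the 17 cholesterol enzymes, levels were 337 and 298 CPM in wild type and 420 and 334 CPM in knockout, where wild-type library 1 lay just above knockout library 2. The signs of Mvk, Idi1, Sqle, Tm7sf2, Msmo1 and Nsdhl turned negative when libraries were scaled by their totals alone, which moved the median of all genes to -0.56.

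All 3 regulators were lower in both knockout libraries and 0 passed by edgeR. Srebf2 alone was lower at an unadjusted p under 0.05 and alone passed by DESeq2 (1 of 3 each), and limma-voom gave 0. Srebf2, the gene of the main activator of cholesterol enzymes, had 254 and 209 CPM in wild type and 96.4 and 102 CPM in knockout (-1.22 ± 0.38, adjusted p 0.096). The gap between its groups was wider than the spread within either, and the log2 ratio was -1.40 between libraries 1 and -1.03 between libraries 2. Srebf2 passed as lower in 4 of 13 alternative fits and did not pass in the other 9. The 4 were DESeq2 (adjusted p 0.028), library totals alone (0.029), the replicate block (6.3e-04) and the fit without wild-type library 2. Srebf1, the source of the main activator of fatty acid enzymes, had 89.6 and 53.4 CPM in wild type and 43.7 and 51.0 CPM in knockout (-0.59 ± 0.41, adjusted p 0.37). Wild-type library 2 and knockout library 2 of this gene were almost level, with a log2 ratio of -0.066, against -1.04 between libraries 1. Insig1, which retains the SREBPs and is itself their target, had 18.6 and 25.7 against 16.7 and 18.1 CPM (-0.35 ± 0.38, adjusted p 0.57). Per kilobase of merged exon, the level of Srebf2 was 2.22 and 3.06 times that of Srebf1 in wild type and 1.73 and 1.57 times in knockout.

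The 3 fatty acid synthesis members were all lower, with a median of -1.02 and 0 passed by edgeR. Of the 3, 2 had an unadjusted p under 0.05, and DESeq2 and limma-voom passed 1 and 0. The further fatty acid synthesis genes described below went mostly the other way (16 of 21 tested were higher, median 0.52). Fasn, fatty acid synthase, had 128 and 108 CPM in wild type and 38.4 and 58.5 CPM in knockout (-1.28 ± 0.40, adjusted p 0.099). Fasn passed as lower in 5 of 13 alternative fits and did not pass in the other 8, which include those without a knockout library. It passed with library totals alone (adjusted p 0.035), DESeq2 (0.029), the replicate block (1.1e-04) and without either wild-type library. Acaca, the acetyl-CoA carboxylase that makes malonyl-CoA, had 28.2 and 46.3 CPM against 15.7 and 20.95 CPM (-1.02 ± 0.42, adjusted p 0.17). It passed as lower in 2 of 13 alternative fits, the replicate block (adjusted p 0.0039) and the fit without wild-type library 1. Acly, the citrate lyase that supplies acetyl-CoA, had 131 and 166 CPM against 83.2 and 107 CPM (-0.64 ± 0.38, adjusted p 0.30). In each of the 3 genes both knockout libraries lay below both wild-type libraries, and the median log2 ratio was -0.85 between libraries 1 and -0.88 between libraries 2.

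Desaturases of polyunsaturated and of monounsaturated fatty acids differed in direction. Fads1 and Fads2, which place double bonds on the way from dietary essential fatty acids to arachidonic acid and its relatives, rose. Fads1 (ENSMUSG00000010663, GRCm38 chromosome 19, 10182888 to 10196877, plus strand) had 10.1 and 11.7 CPM in wild type and 54.3 and 44.7 CPM in knockout. The log2 fold change of 2.18 ± 0.39 (SE) had an adjusted p of 0.021. Fads2 (ENSMUSG00000024665, chromosome 19, 10062765 to 10101746, minus strand) had 2.33 and 2.504 CPM in wild type and 11.6 and 12.4 CPM in knockout, or 2.31 ± 0.41 on the log2 scale (adjusted p 0.021). The 2 wild-type libraries were close together for each gene, and the lowest knockout level was 3.82 times the highest wild-type level for Fads1 and 4.65 times for Fads2. The fit without knockout library 1 lost both calls (adjusted p 0.11 for Fads1 and 0.065 for Fads2), the fit without knockout library 2 lost Fads2 (0.056), and scaling by library totals alone lost Fads1 (0.051).

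Scd1, the most abundant member per kilobase in wild type, had 329 and 579 CPM in wild type and 123 and 152 CPM in knockout (-1.72 ± 0.47, adjusted p 0.074). Its groups did not overlap, and wild-type library 2 stood well above wild-type library 1. Scd1 passed as lower in 6 of 13 alternative fits and did not pass in the other 7, which include those without a knockout library. It passed with no filter (adjusted p 0.033), library totals alone (0.0043), DESeq2 (0.0030) and the replicate block (3.6e-06). In those fits 490, 1376, 928 and 2669 of all genes passed as lower, against 53 in the main fit. The remaining passes were the fits without a wild-type library. Scd2, its neighbour and close relative, had 79.4 and 105 CPM against 48.5 and 71.6 CPM (-0.62 ± 0.40, adjusted p 0.34), also without overlap. Per kilobase, Scd1 was 4.63 and 6.16 times Scd2 for wild type and 2.84 and 2.38 times in knockout. Reads of near-identical stretches of the Scd genes are shared out by estimation, which makes this ratio uncertain. Elovl6, the elongase of saturated and monounsaturated chains, had 4.33 and 6.14 against 3.15 and 4.70 CPM, with overlapping groups. Per kilobase, Fads1 was 0.031 and 0.021 times Scd1 for wild type and 0.447 and 0.298 times in knockout. The lowest knockout ratio lay above the highest wild-type ratio. This follows from Fads1 being higher and Scd1 lower in both knockout libraries, so the ratio is no further test of either change.

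**Figure D3:**
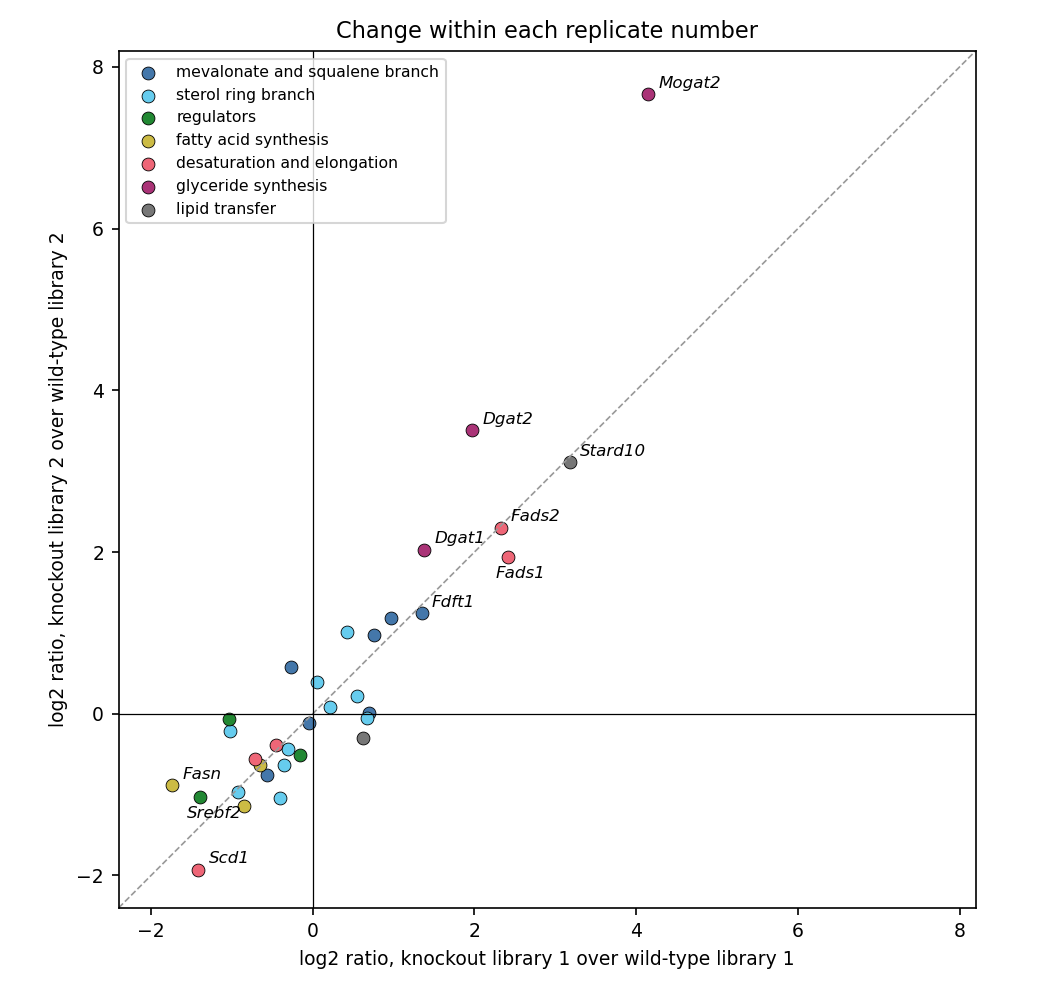
Log2 ratio of knockout library 1 over wild-type library 1 (horizontal) against knockout library 2 over wild-type library 2 (vertical) for the 33 members, coloured by branch; the dashed line marks equal values. Fdft1, Fads1, Fads2, Dgat1, Dgat2, Mogat2 and Stard10 are above 1 on both axes, Scd1 and Srebf2 are below -1 on both, and Mogat2 sits far above the line (4.15 and 7.67).

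The 3 glyceride synthesis members were all higher, with a median of 2.66 and 2 passed. Dgat2 and Dgat1 encode 2 unrelated enzymes that add the last acyl chain of triglyceride. Dgat2 (ENSMUSG00000030747, chromosome 7, 99153658 to 99182719, minus strand) had 2.75 and 1.31 CPM in wild type and 10.8 and 14.8 CPM in knockout. The log2 fold change of 2.66 ± 0.52 (adjusted p 0.028) became 3.28 without wild-type library 1. Dgat1 had 17.8 and 9.995 CPM in wild type and 46.0 and 40.8 CPM in knockout (1.64 ± 0.43, adjusted p 0.069). It passed by DESeq2, with no filter, with the replicate block and without wild-type library 1 or 2, but not without a knockout library. Neither gene's groups overlapped, and per kilobase Dgat2 was 0.154 and 0.129 times Dgat1 for wild type and 0.233 and 0.360 times in knockout.

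Mogat2, a relative of Dgat2 that encodes a monoacylglycerol acyltransferase best known from fat absorption in the gut, was almost uncounted in wild type. Mogat2 (ENSMUSG00000052396, chromosome 7, 99219084 to 99238619, minus strand) was counted 18 and 2 times in wild type and 185 and 376 times in knockout, or 0.41 and 0.043 CPM against 7.20 and 8.70 CPM. The log2 fold change was 5.14 ± 0.89 (adjusted p 0.020), and Mogat2 entered the test through its knockout counts. Summed over libraries, the scaled ratio was 37.1 (exact 95% binomial interval 23.8 to 61.2). It was 17.7 (10.9 to 30.6) between libraries 1 and 203 (55.9 to 1685) between libraries 2, where the wild-type count was 2, and these intervals cover counting error only. The log2 fold change moved to 7.42 when wild-type library 1 was left out and to 4.28 when library 2 was, so its size rests on a few wild-type counts.

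Stard10 and Stard4 encode lipid transfer proteins with a START domain, for phospholipid and for cholesterol. Stard10 (ENSMUSG00000030688, chromosome 7, 101317086 to 101346626, plus strand) had 31.4 and 14.6 CPM in wild type and 284 and 126 CPM in knockout, or 3.16 ± 0.59 on the log2 scale (adjusted p 0.025). Library 1 was 2.15 times library 2 in wild type and 2.25 times in knockout, so the log2 ratios within a replicate number were close (3.18 and 3.12). Its log2 fold change was 3.80 without wild-type library 1 and 2.46 without knockout library 1. Stard4 had 13.3 and 21.2 against 20.4 and 17.3 CPM (0.13 ± 0.41, adjusted p 0.86, and -0.43 with library totals alone), with overlapping groups.

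Cell markers differed between the genotypes beside these genes. All 12 erythroid precursor markers were higher and 6 passed. The globin gene Hba-a1 had 16183 and 5513 CPM in wild type and 107266 and 29020 CPM in knockout (adjusted p 0.17). Hbb-bs had 22974 and 10910 CPM against 125252 and 46343 CPM (adjusted p 0.18). Summed levels of the 12, which came mostly from these globin genes, were 18858 to 40733 CPM in wild type and 87147 to 251759 CPM in knockout. All 12 neutrophil precursor markers passed as higher (157 to 259 against 15643 to 16370 CPM), as did 15 of 16 cell cycle markers (549 to 981 against 4354 to 5606 CPM). B cell markers were lower in 10 of 10 cases (5770 to 6688 against 2838 to 3476 CPM) and T cell markers in 10 of 10 (1103 to 1505 against 573 to 593 CPM), with 0 of either passing by edgeR or limma-voom. At an unadjusted p under 0.05, 6 B and 8 T cell markers were lower, and DESeq2 passed 6 and 4. Macrophage and monocyte markers summed to 874 to 1379 and 1616 to 2206 CPM, with 9 of 12 higher and 0 passed (2 at an unadjusted p under 0.05, DESeq2 1 and limma-voom 0). In a bulk sample, fewer cells of a type and less RNA per cell cannot be told apart, and the part of cell makeup in any result here was not tested. Of 8 megakaryocyte and platelet markers 1 passed, as higher. Of 8 exocrine pancreas markers only Cela1 was tested, and it passed as higher (4.11 and 2.70 CPM against 42.6 and 19.5 CPM). The other 7 had 0 counts in knockout library 1 and from 1 (Pnlip and Prss2) to 51 (Amy2a5) in knockout library 2. In wild type only Amy2a5 (2 and 5) and Prss2 (10 and 0) of these had counts. Stroma and endothelium markers were lower in all 5 tested cases, with 0 passed by edgeR or limma-voom, 1 by DESeq2 and 2 at an unadjusted p under 0.05. Of 7 adipocyte markers, 5 (Plin1, Cidec, Lep, Cfd and Adrb3) had 0 counts in every library, and the 7 summed to 0.15 to 0.29 CPM in wild type and 0.16 to 0.21 CPM in knockout.

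**Figure D4:**
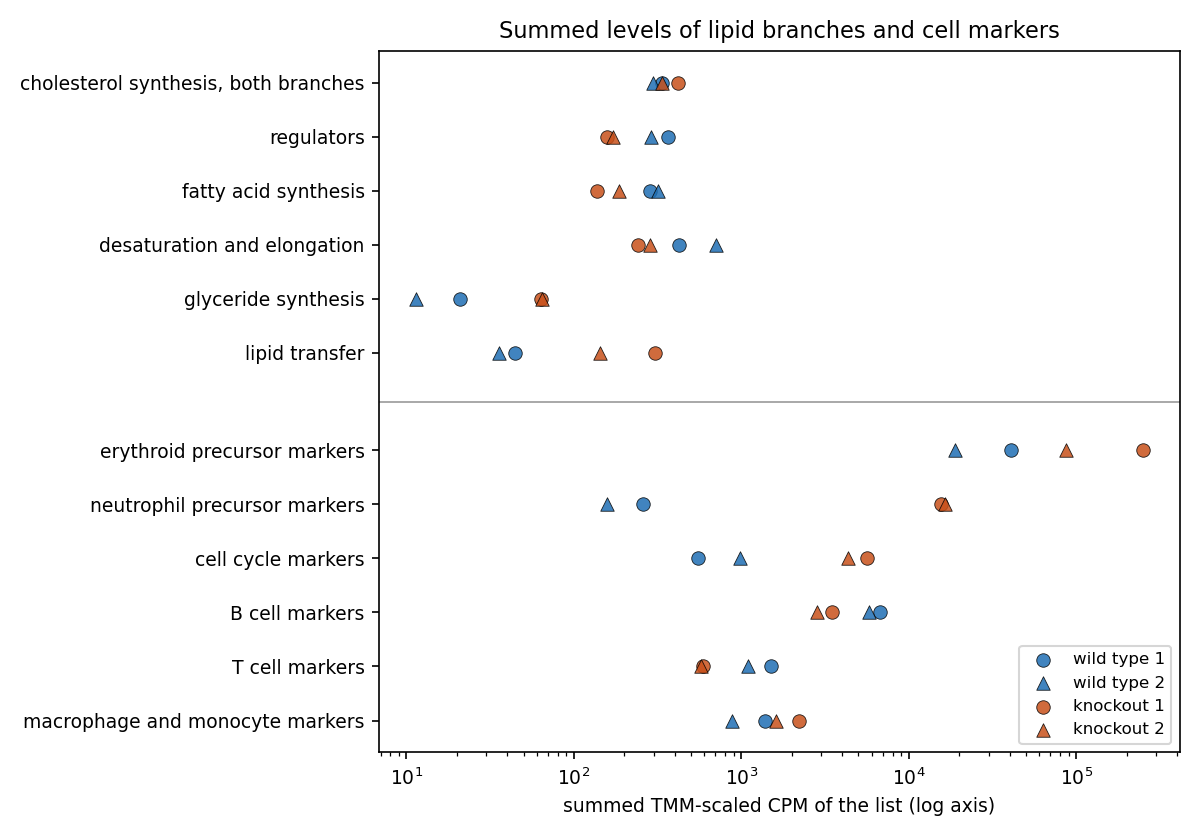
Summed TMM-scaled CPM (log axis) of 6 lipid groups (above the line) and 6 marker lists (below) in each library, coloured by genotype as in the plot of single genes. Glyceride and lipid transfer sums were higher in knockout, as were erythroid, neutrophil and cell cycle sums. Most of the erythroid sum came from the globin genes Hba-a1 and Hbb-bs. Regulator and fatty acid synthesis sums were lower in knockout, as were B and T cell sums.

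The wider pathway was read from 9 further lists, 162 genes in all, of which 161 were in the table and 136 were tested. Of these 8 passed as higher, a share near the 5.90% of all tested genes, and 0 as lower (0.392% of all). The median was 0.19. At an unadjusted p under 0.05, 26 were higher and 2 lower, beside 15.5% and 12.3% of all tested genes. As lower, DESeq2 passed 1 (Abca1), beside 6.86% of all, and limma-voom 0. As higher, DESeq2 passed 5 further fatty acid synthesis genes. It passed 3 each in the glyceride, lipid droplet and uptake lists, 2 of the liver X receptor list and 1 isoprenoid gene, beside 11.6% of all. Among 21 further tested genes of fatty acid synthesis, 16 were higher and 5 lower (median 0.52), and Fads3 and Hacd1 passed. Fads3, the third gene of the Fads cluster, had 1.81 and 1.78 CPM in wild type and 19.2 and 14.4 CPM in knockout (3.23 ± 0.43, adjusted p 0.012). Hacd1, a dehydratase of fatty acid elongation, had 0.63 and 0.75 CPM against 13.8 and 7.69 CPM (3.95 ± 0.53, adjusted p 0.012). All 3 genes of the Fads cluster thus passed as higher with groups that did not overlap. Fads6, which lies outside the cluster on chromosome 11, did not pass, and its groups overlapped. Its levels were 1.31 and 2.08 against 1.60 and 1.44 CPM (-0.16 ± 0.56, adjusted p 0.87), and it was named after its values were seen.

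Of 10 tested lipid droplet and lipolysis genes 2 passed, Abhd5 and Mgll. Abhd5, the activator of the triglyceride lipase, had 5.06 and 5.63 CPM in wild type and 58.8 and 48.2 CPM in knockout (3.32 ± 0.41, adjusted p 0.011). Mgll, the lipase of monoglycerides, had 5.94 and 10.6 CPM against 134 and 82.7 CPM (3.71 ± 0.50, adjusted p 0.012). The lipases of triglyceride and diglyceride in the same list did not pass. Pnpla2, the triglyceride lipase, had 88.7 and 39.2 CPM against 81.0 and 57.9 CPM (0.12 ± 0.48, adjusted p 0.89), and Lipe, the hormone-sensitive lipase, had 37.3 and 16.8 CPM against 24.7 and 16.9 CPM (-0.38 ± 0.49, adjusted p 0.64). Both had overlapping groups, and both were named after their values were seen. Of 16 further tested glyceride synthesis genes 10 were higher and 6 lower (median 0.33). Only 1 passed, Plpp1, a lipid phosphate phosphatase (3.43 and 4.75 against 40.9 and 26.02 CPM, log2 fold change 3.03 ± 0.45, adjusted p 0.014).

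Of 12 genes of the liver X receptor system and sterol export 2 passed, Abcg4 and Lpcat3. Abcg4, a sterol transporter, had 2.98 and 8.95 CPM in wild type and 71.2 and 64.3 CPM in knockout (3.51 ± 0.59, adjusted p 0.018), with log2 fold changes of 2.91 and 4.51 when wild-type library 1 or 2 was left out. Lpcat3, which puts polyunsaturated chains into phospholipid, had 40.3 and 38.3 against 169 and 123 CPM (1.90 ± 0.39, adjusted p 0.033). Abca1, the main cholesterol exporter of macrophages, had 27.7 and 96.3 against 11.1 and 17.9 CPM (-2.09 ± 0.63, adjusted p 0.091), with wild-type library 2 far above the others. Its log2 fold change was -0.92 (adjusted p 0.14) when that library was left out and -2.74 (2.5e-05) when wild-type library 1 was. In the isoprenoid list 1 of 12 passed, Fntb, a subunit of protein farnesyltransferase (14.7 and 11.9 against 55.7 and 38.7 CPM, log2 fold change 1.83 ± 0.41, adjusted p 0.043). Neither Lpcat3 nor Fntb passed without knockout library 1 (adjusted p 0.30 and 0.38), without knockout library 2 (0.059 and 0.062) or with library totals alone (0.11 and 0.14).

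The other sterol pathway genes (12 tested), the SREBP control genes (14) and the other START domain genes (11) had 0 passing by edgeR, DESeq2 or limma-voom, with medians of -0.43, -0.26 and -0.33. At an unadjusted p under 0.05, 1 of these sterol genes was higher (Scarb1) and 1 lower (Npc1), and 0 of the other 2 lists. Scap, the escort of the SREBPs, had 77.8 and 52.6 CPM in wild type and 34.0 and 36.5 CPM in knockout (-0.89 ± 0.38, adjusted p 0.18), without overlap. It passed as lower in 2 of 13 alternative fits, the replicate block and the fit without wild-type library 2. Among 28 tested genes of fatty acid uptake and oxidation 0 passed by edgeR (at an unadjusted p under 0.05, 7 higher and 0 lower, while DESeq2 passed 3 and limma-voom 2, all higher). Acsl1, an acyl-CoA synthetase, came nearest, with 23.3 and 53.5 CPM in wild type and 167 and 160 CPM in knockout (2.09 ± 0.49, adjusted p 0.051). It passed in 6 of 13 alternative fits, among them those without a wild-type library, and not in those without a knockout library.

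**Figure D5:**
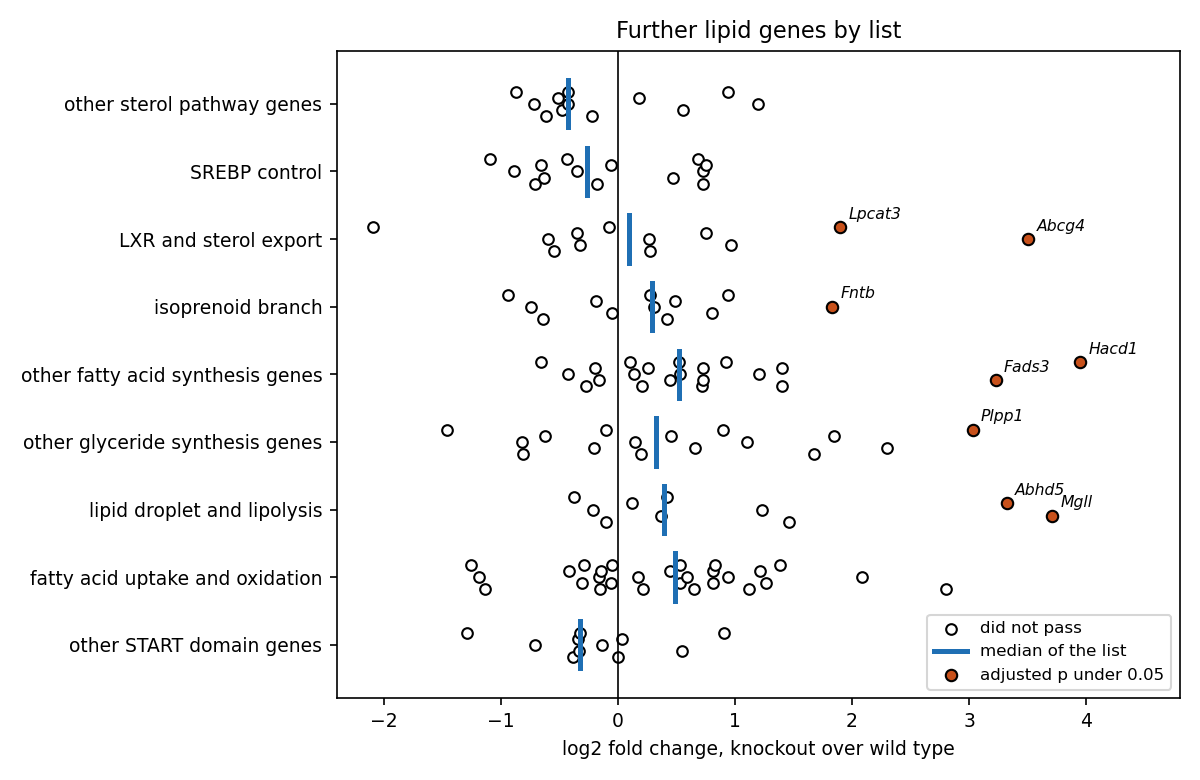
Log2 fold change of the 136 tested genes of 9 further lipid lists, one row per list; filled points passed at an adjusted p under 0.05 and blue bars mark list medians. The 8 filled points are all on the right, between 1.83 (Fntb) and 3.95 (Hacd1), and the medians run from -0.43 to 0.52.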

How the data were processed

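The authors deposited estimated counts per Ensembl gene for 4 libraries, already whole numbers (0 values off a whole number), so rounding changed none. STAR 2.5.0, RSEM 1.2.25, SAMtools 1.18 and the build GRCm38 are named in the submitters' processing notes without their roles. The sources used here give neither the annotation release nor the strand setting of the counting, so antisense and overlapping genes are uncertain, as are near-identical ones, whose reads are shared by estimation. The 92 spike-in rows held 0 counts and were left out. Symbols and coordinates came from GENCODE M21 on GRCm38 (25251 of 25509 rows matched). Counts were tested with edgeR 4.0.16 (R 4.3.3): TMM, filterByExpr, robust quasi-likelihood fit, no covariate, 2 residual degrees of freedom. The SE is the log2 fold change divided by the square root of F. Alternatives used DESeq2 1.42.0, limma 3.58.1, other scalings and filters, a replicate block and each library left out. The script was tested on simulated data. Members and lists were chosen with earlier results of these data known. Named were all members, up to 4 genes of lowest p per further list, and genes of small counts. The rule for promoters (members with a sterol element) gave Hmgcs1, and Srebf2, Fasn and Stard10 were added after their values were seen. Single libraries carry counting error besides the spread given, and a count of 0 allows up to 3 counts.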

Additional observations from a re-analysis of the deposited data

How the results depend on the processing

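Over 13 alternatives, Dgat2 and Stard10 passed as higher in all, Mogat2 in the 12 that kept it (its wild-type counts fell under a minimum of 10), Fads1 in 11 and Fads2 in 11. With 1 library left out, the number of members higher ranged from 3 to 10 and of members lower from 0 to 4. Over all genes those ranges were 601 to 2300 and 30 to 2047. Library totals alone put 3 members lower and 1376 genes lower. DESeq2 put 3 members lower, with 1569 genes higher and 928 lower. With no filter 1 member was lower, with 1278 genes higher and 490 lower. The titles' numbers were not taken as pairs, since nothing in the labels ties same-numbered libraries, although libraries of 1 number deviated from their genotype's mean alike (correlation across genes 0.63) and share an Xist pattern. With the replicate number as a block 10 members passed as higher and 5 as lower, among 3036 and 2669 genes. This block also separates the Xist patterns. The 5 lower were Scd1 (adjusted p 3.6e-06), Fasn (1.1e-04), Srebf2 (6.3e-04), Acaca (0.0039) and Lss (0.0087), and those added as higher were Dgat1, Fdft1, Fdps, Pmvk and Ebp. Directions turned for 8 members, none of the 5 that passed. With library totals alone Mvk was at -0.46, Idi1 -0.22, Sqle -0.24, Tm7sf2 -0.33, Msmo1 -0.37, Nsdhl -0.15 and Stard4 -0.43. With 1 library left out Mvk ranged from -0.43 to 0.75 (-0.14 without knockout library 1), Mvd from -0.70 to 0.51 (0.38 without knockout library 2), Idi1 from -0.044 to 0.74, Tm7sf2 from -0.14 to 0.59 (-0.022 without knockout library 1) and Stard4 from -0.19 to 0.51. The cause of these changes was not tested. With 2 libraries per genotype, 1 residual degree of freedom remained when 1 was left out, and the lone library was taken to vary as the pair of the other genotype did. Depth bears most on Mogat2, through its 2 counts in wild-type library 2.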

Other observations

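The 5 members that passed lie in 3 places of the genome (GRCm38). Fads1 and Fads2 are 81142 bases apart on chromosome 19, and Dgat2 and Mogat2 are 36365 bases apart on chromosome 7. Within 100 kb of the 5 genes, 15 other genes were in the table and 11 were tested. Beside 5.90% of all tested genes passing as higher, 3 of the 11 passed, all higher and all around the Fads genes. These were Fen1, a flap endonuclease of DNA replication whose end lies 2255 bases from Fads1 (2.63 ± 0.45, adjusted p 0.018), Fads3, 2655 bases from Fads2, and Rab3il1, a guanine nucleotide exchange factor (3.46 ± 0.53, adjusted p 0.015). Fen1 had 41.3 and 25.4 CPM in wild type and 243 and 169 CPM in knockout. None of the 5 genes overlaps another gene of the table.

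Around Stard10 and the Dgat2 and Mogat2 pair, the tested neighbours had negative log2 fold changes and 0 passed by edgeR. Arap1, 1441 bases from Stard10, had 286 and 192 CPM in wild type and 132 and 131 CPM in knockout (-0.86 ± 0.40, adjusted p 0.21). Fchsd2 (-2.15) and Atg16l2 (-1.02) near Stard10 and Uvrag (-0.98) near Dgat2 had adjusted p of 0.077 to 0.15. Stard10, Mogat2 and Dgat2 lie 1.21, 3.32 and 3.38 Mb from Trim21 on the same chromosome. Within 5 Mb of Trim21, 7 of 100 tested genes besides it passed as higher (7%, beside 5.90% of all tested genes) and 1 as lower, and these 3 members are among the 7.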
